A study of Mus musculus with 16 samples.

Results

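The genes described here encode neurotrophins, their receptors and the proteins that sort and cleave their precursors: Bdnf, Ntf3, Ntrk2, Ntrk3, Ngfr, Sort1 and Furin. They were taken by symbol, and all 7 were found in both count tables, out of 26371 symbols that the tables share. Cortices of C57BL/6 mouse embryos of embryonic day 17.5 to 19.5 were the source of the neuron cultures, and those of 1 litter were pooled as 1 replicate. Neurons received adeno-associated virus (AAV) on day 8 in vitro and were collected on day 13. The virus carried a hairpin against Nup153 (shNup153-2 or shNup153-1) or a control hairpin (shControl), and the labels name no deletion or transgene in the mice. For silencing, cultures were also kept for 24 hours in tetrodotoxin (1 to 2 µM), a blocker of voltage-gated sodium channels, and for 6 hours in D-AP5 (100 µM), a blocker of NMDA receptors. Basal cultures received neither. The libraries used were 3 silenced with shNup153-2, 3 silenced with shControl, 2 basal with shNup153-2, 2 basal with shNup153-1 and 4 basal with shControl. The series asks how far Nup153, a nucleoporin of the nuclear basket, shapes gene expression in mature neurons.

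Neurotrophins are secreted as precursors that furin, a convertase of the trans-Golgi network, and related convertases cleave into mature ligands. Mature brain-derived neurotrophic factor (Bdnf) acts mainly through the receptor tyrosine kinase TrkB (Ntrk2), and neurotrophin-3 (Ntf3) mainly through TrkC (Ntrk3). The precursors bind a complex of the p75 neurotrophin receptor p75NTR (Ngfr) with the sorting receptor sortilin (Sort1), which also directs Bdnf precursor into regulated secretory vesicles. In cortical neurons Bdnf is known for transcription that follows synaptic activity, driven by several promoters, each joined to its own first exon.

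In the GENCODE annotation of mm10, Bdnf lies at chr2:109674700-109727007 on the plus strand, Ntf3 at chr6:126101412-126166910 on the minus strand and Ntrk2 at chr13:58806569-59133970 on the plus strand. Ntrk3 lies at chr7:78175959-78738012 and Ngfr at chr11:95568818-95587735, both on the minus strand. Sort1 lies at chr3:108284082-108361511 on the plus strand and Furin at chr7:80388585-80405436 on the minus strand. All 7 are protein-coding, and the counts are per gene, so neither the Bdnf promoters nor full-length and truncated TrkB are separated. An antisense gene shares 14.4% of the exon bases of Bdnf (Gm45346), 4.47% of those of Sort1 (Gm12523) and 1.29% of those of Furin (Gm44851). Whether counting used strand is not given in the sources here. Those antisense genes were counted at no more than 0.479, 0.348 and 0.15 CPM (counts scaled to a common library size) in the silenced and basal shNup153-2 and shControl libraries.

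RefSeq promoter windows on GRCm38.p6 were given for Bdnf (7 windows), Ntf3 (2), Furin (2), Ngfr (1) and Ntrk2 (1). The 250 bases before each start were searched on both strands for the cAMP response element TGACGTCA, its half-site TGACG, the calcium response element CaRE1 of Bdnf, the AP-1 motif TGANTCA and the GC box GGGCGG. The half-site is contained in the full cAMP response element. The pair of windows below is shown because Bdnf and Furin had the largest log2 fold changes of the 7 genes with shNup153-2 at basal state and because these were the windows of the members that held a half-site. Capitals mark matches to the motifs searched, in either orientation.
Bdnf, chr2:109692186-109692435, plus strand: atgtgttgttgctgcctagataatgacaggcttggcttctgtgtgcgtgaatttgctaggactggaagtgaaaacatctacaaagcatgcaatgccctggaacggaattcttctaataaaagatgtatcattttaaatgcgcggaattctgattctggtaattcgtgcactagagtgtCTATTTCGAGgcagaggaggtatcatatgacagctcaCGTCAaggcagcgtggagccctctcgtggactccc
Furin, chr7:80405437-80405686, minus strand: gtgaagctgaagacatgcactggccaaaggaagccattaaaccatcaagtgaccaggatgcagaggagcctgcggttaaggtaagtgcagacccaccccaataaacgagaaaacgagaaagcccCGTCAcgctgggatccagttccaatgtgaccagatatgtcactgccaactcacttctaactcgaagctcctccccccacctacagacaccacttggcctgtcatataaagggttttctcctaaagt
The Bdnf window lies before the activity-responsive promoter IV and holds CaRE1, its first run of capitals, 72 bases and a half-site 35 bases before the start. The Furin window holds a half-site 126 bases before the start. Neither window overlaps an annotated exon. The other windows searched, those of Bdnf and Furin among them, held no half-site. Of 32851 promoter windows of this length, 17.8% hold the half-site, 1.55% the full element, 6.75% the AP-1 motif, 32.7% the GC box and 0.00609%, which is 2 windows, hold CaRE1. GC boxes stood in windows of Bdnf, Ntf3, Ngfr and Furin, and an AP-1 match in 1 other Bdnf window, 152 bases before its start. Such matches describe the letters of the windows and were not tested against the counts.

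Library totals ranged from 26863535 to 56299817 counts. Nup153 itself averaged 11.1 CPM in silenced shNup153-2 libraries and 59.3 CPM in silenced shControl libraries. In basal cultures it averaged 12.6 CPM with shNup153-2, 22.5 CPM with shNup153-1 and 70.5 CPM with shControl. Per the labels, libraries were made only from samples with sufficient knockdown, so this difference was a condition of entry. Pan-neuronal markers (9 genes) summed to 5000 to 9430 CPM over all libraries. The microglial markers found, 4 of 8 listed, summed to at most 1.84 CPM. Of 3 microglial markers tested at basal state, 1 was higher with shNup153-2 and 0 with shNup153-1. The basal shNup153-1 libraries stood apart in oligodendrocyte-lineage markers: 8 of 11 tested were higher than in shControl, and the sums were 797 to 810 CPM with shNup153-1, 254 to 382 CPM with shNup153-2 and 114 to 285 CPM with shControl. Of these markers, 1 to 3 (among Sox10, Mag and Gpr17) were at 0 in each shControl library and 2 (Mag and Gpr17) in 1 shNup153-2 library. None of 7 such markers tested with shNup153-2 at basal state was called. Other marker sums of the shNup153-1 libraries also lay outside the range of basal shControl. Fibroblast and meningeal markers summed to 43.3 to 111 CPM with shNup153-1, against 3.30 to 16.2 CPM with shControl. Of these 6, 1 was called higher, Pdgfra, which both this list and the oligodendrocyte list hold. Yet the median log2 fold change of the 6 was -1.33, and Col1a2 and Col3a1 were at 0 in shNup153-1 replicate 1. Neural progenitor markers summed to 706 to 758 CPM, against 276 to 476 CPM (1 of 8 higher and 1 lower), and GABAergic interneuron markers to 1560 to 2340 CPM, against 788 to 1420 CPM (1 of 10 higher). Excitatory cortical neuron markers summed to 963 to 1630 CPM with shNup153-1, against 1680 to 2210 CPM with shControl (2 of 10 lower). Endothelial and mural markers summed to 3.73 to 12.0 CPM with shNup153-1 and 9.60 to 11.4 CPM with shNup153-2, against 12.1 to 23.1 CPM with shControl (2 and 1 of 5 lower). The part of these markers in the results for either hairpin was not tested. In bulk RNA, fewer cells of a type and less RNA per cell cannot be told apart.

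Knockdown of Nup153 in basal neurons was accompanied by higher Bdnf and Furin RNA with both hairpins and by higher Ngfr and Sort1 RNA with shNup153-2. With shNup153-2, 4 of the 7 genes were higher and none lower than with shControl at a false discovery rate (FDR) under 0.05 in edgeR's quasi-likelihood test. Over all 19682 genes tested, 5.91% were higher and 3.64% lower, 9.55% in all. The median log2 fold change was 1.20 over the 7 genes and -0.03 over all genes. With shNup153-1, 2 of the 7 genes were higher and none lower, against 6.52% higher and 7.05% lower among 14529 genes tested. The median log2 fold change for that hairpin was 0.31 over the 7 genes and -0.02 over all genes. Both comparisons share the 4 basal shControl libraries.

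In silenced neurons, shNup153-2 was accompanied by higher Furin and Sort1 RNA and by no called change of Bdnf. There 2 of the 7 genes were higher and none lower, against 1.61% higher and 1.83% lower among 18965 genes tested. The median log2 fold change was 0.63 over the 7 genes and 0.01 over all genes. Same-numbered silenced libraries deviated from their group means together, and with the replicate number as a block Ntf3 was called as well, giving 3 higher genes. That blocked fit called 4161 genes in place of 654, 11.7% of all tested as higher and 10.3% as lower. Without a block, DESeq2 and the edgeR fit with no filter on low counts each called 3 of the 7 genes as higher too. Over all genes these 2 fits called 1791 and 855.

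**Figure D1:**
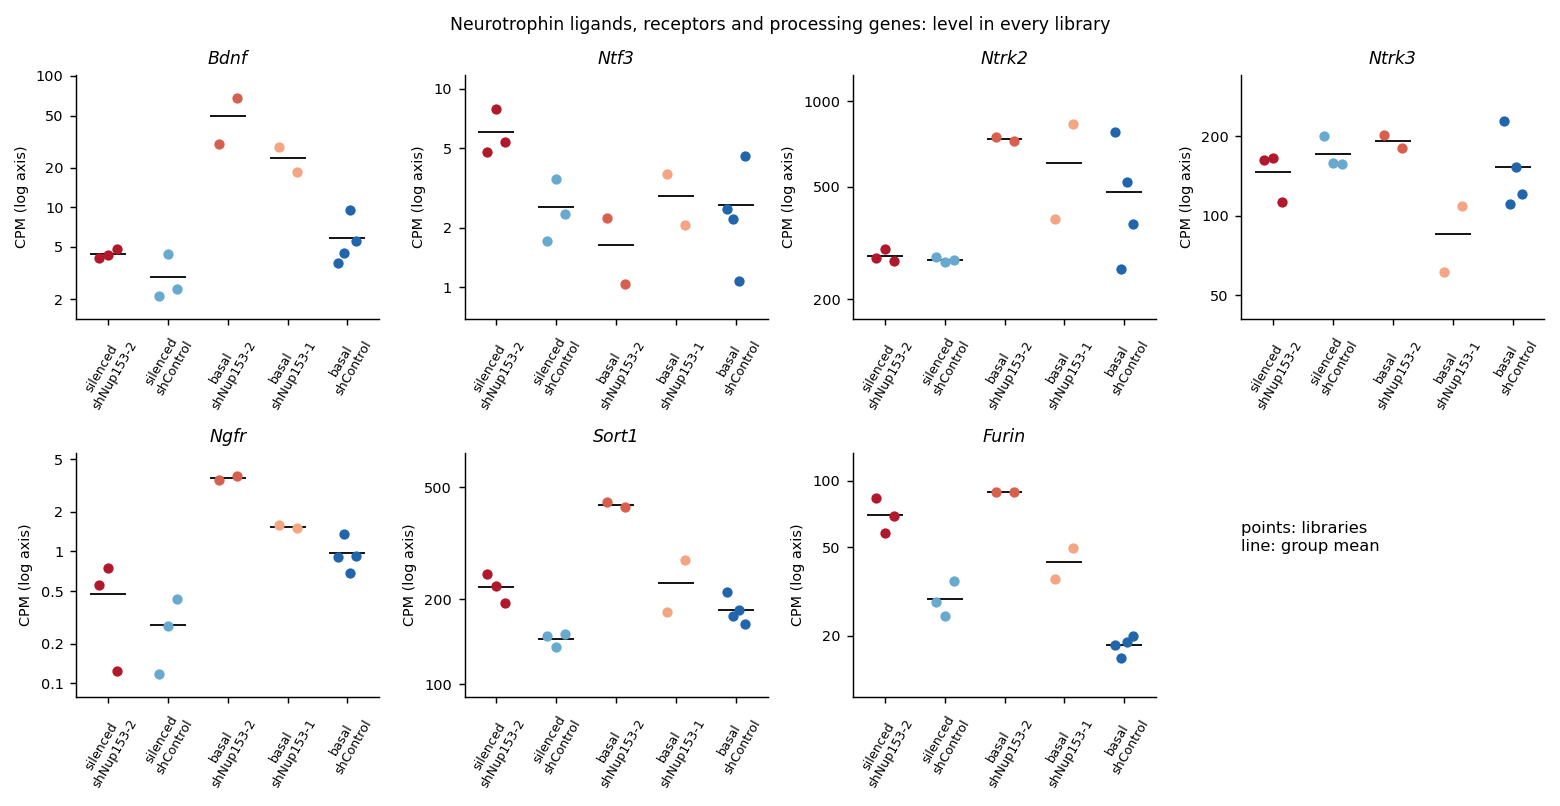
Level of each gene in every library, in CPM on a log axis, by group; points are libraries and lines are group means. Both basal shNup153-2 libraries lie above all 4 basal shControl libraries for Bdnf, Ngfr, Sort1 and Furin, while the groups overlap for Ntf3, Ntrk2 and Ntrk3. The share of all genes whose groups do not overlap was not counted, here or for the groups compared below.

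Per kilobase of exon, the order of levels in basal shControl neurons was Ntrk2 at 24.9, Sort1 at 24.3, Ntrk3 at 5.09, Furin at 1.97, Ntf3 at 1.51, Bdnf at 0.941 and Ngfr at 0.282 CPM per kb. The ranges of Ntrk2 and Sort1 overlapped, as did those of Furin and Ntf3 and those of Ntf3 and Bdnf. On this scale the 2 receptors for sorting and for Bdnf were thus the most abundant of the transcripts, and p75NTR the least. The scale divides by all annotated exon bases of a gene, from 1.71 kb for Ntf3 to 30.17 kb for Ntrk3. By CPM alone Ntrk2 led Sort1 in silenced neurons, at 284 against 221 CPM with shNup153-2 and 276 against 145 CPM with shControl. With shNup153-2 at basal state Ntrk2 had 738 CPM against 432 CPM of Sort1, and Ntrk3 had 192 CPM against 89.0 CPM of Furin. In basal shNup153-2 neurons the order was Sort1 at 57.1, Ntrk2 at 38.2, Furin at 9.69, Bdnf at 7.96, Ntrk3 at 6.37, Ngfr at 1.05 and Ntf3 at 0.952 CPM per kb. There the ranges of Furin and Bdnf, of Bdnf and Ntrk3 and of Ngfr and Ntf3 overlapped. In basal shNup153-1 neurons Ntrk2 at 31.4 and Sort1 at 30.2 CPM per kb again led with overlapping ranges, and Furin at 4.67, Bdnf at 3.79, Ntrk3 at 2.82 and Ntf3 at 1.69 CPM per kb each overlapped the next, before Ngfr at 0.448 CPM per kb. In silenced neurons Sort1 led, with 29.2 CPM per kb under shNup153-2 and 19.1 CPM per kb under shControl, and Ngfr was last, with 0.138 and 0.0801 CPM per kb in the same groups. Between them stood Ntrk2 (14.7 CPM per kb), Furin (7.67), Ntrk3 (4.87), Ntf3 (3.51) and Bdnf (0.713) under shNup153-2, of which only Ntrk3 and Ntf3 overlapped. Under shControl the middle ranks, none overlapping its neighbour, were Ntrk2 (14.3 CPM per kb), Ntrk3 (5.69), Furin (3.19), Ntf3 (1.48) and Bdnf (0.476).

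Bdnf, the ligand of TrkB, had 30.6 and 68.4 CPM in the basal shNup153-2 libraries and 28.7 and 18.5 CPM in the basal shNup153-1 libraries, against 3.77, 4.52, 9.56 and 5.56 CPM in the basal shControl libraries. All 4 knockdown libraries lay above all shControl libraries, and the shNup153-2 libraries above the shNup153-1 libraries. With shNup153-2 Bdnf rose 8.3-fold, a log2 fold change of 3.05 (SE 0.41, edgeR adjusted p = 0.00644). With shNup153-1 it rose 3.95-fold, a log2 fold change of 1.98 (SE 0.42, edgeR adjusted p = 0.0183). Each call was lost without the knockdown library with more Bdnf: without shNup153-2 replicate 2 its log2 fold change was 2.36 with an edgeR adjusted p of 0.0972, and without shNup153-1 replicate 1 it was 1.64 with an edgeR adjusted p of 0.137. With the replicate number as a block the Bdnf call was kept with shNup153-2 and lost with shNup153-1. The difference between the hairpins, 1.06 on the log2 scale (SE 0.50), was not called (edgeR adjusted p = 0.22).

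In silenced neurons the same hairpin left Bdnf low. It had 4.10, 4.36 and 4.84 CPM in the shNup153-2 libraries and 2.12, 4.39 and 2.37 CPM in the shControl libraries. The groups overlapped through shControl replicate 2, and the log2 fold change of 0.61 (SE 0.30) was not called (edgeR adjusted p = 0.323). Compared with basal neurons of the same hairpin, Bdnf fell 11.4-fold in silenced shNup153-2 neurons, a log2 fold change of -3.51 (SE 0.44, edgeR adjusted p = 7e-04), and the call was kept when any 1 library was left out. In shControl neurons the log2 fold change between the states was -1.03 (SE 0.38, edgeR adjusted p = 0.0934), with overlapping groups. The knockdown effect was smaller in silenced than in basal neurons by 2.48 on the log2 scale (SE 0.56). That interaction had an unadjusted p of 0.000787 and an adjusted p of 0.162 in edgeR, and an adjusted p of 0.0065 in DESeq2.

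Ntf3, the ligand of TrkC, moved differently. In silenced neurons it had 4.79, 7.86 and 5.42 CPM with shNup153-2, against 1.71, 3.53 and 2.35 CPM with shControl. All 3 knockdown libraries lay above all 3 control libraries. The log2 fold change was 1.27 (SE 0.32), with an edgeR adjusted p of 0.0845 without a block. With the replicate number as a block it was 1.30, with an edgeR adjusted p of 0.00226. In basal neurons Ntf3 had 2.23 and 1.04 CPM with shNup153-2, 3.73 and 2.06 CPM with shNup153-1 and 2.48, 2.22, 1.08 and 4.57 CPM with shControl. These groups overlapped, and neither the log2 fold change of -0.69 (SE 0.58, edgeR adjusted p = 0.448) with shNup153-2 nor that of 0.13 (SE 0.56, edgeR adjusted p = 0.91) with shNup153-1 was called. Without shNup153-1 replicate 1 the second was -0.35, and without shControl replicate 3 it was -0.10.

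Between states, Ntf3 was the 1 gene of the 7 that rose in silenced shNup153-2 neurons, with a log2 fold change of 1.84 (SE 0.56, edgeR adjusted p = 0.0371). The call was lost without basal shNup153-2 replicate 1 (edgeR adjusted p = 0.0863) or 2 (0.225) and without silenced shNup153-2 replicate 1 (0.0636), 2 (0.0738) or 3 (0.0709), with log2 fold changes of 1.41 to 2.5. In shControl neurons the log2 fold change of Ntf3 between the states was -0.09 (SE 0.44, edgeR adjusted p = 0.921). It was 0.14 without silenced shControl replicate 1, 0.36 without basal shControl replicate 4 and 0.37 with the replicate block. The interaction was 1.93 on the log2 scale (SE 0.71), with an unadjusted p of 0.0182 and an adjusted p of 0.361 in edgeR.

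Ntrk2, which encodes TrkB, had 750 and 726 CPM in basal shNup153-2 libraries and 384 and 828 CPM in basal shNup153-1 libraries, against 777, 256, 518 and 368 CPM in basal shControl libraries. The basal groups overlapped widely. The log2 fold change was 0.59 (SE 0.39, edgeR adjusted p = 0.335) with shNup153-2 and 0.31 (SE 0.44, edgeR adjusted p = 0.695) with shNup153-1, where it was -0.36 without shNup153-1 replicate 2. Silenced libraries were close to one another, with 280, 301 and 273 CPM for shNup153-2 and 282, 270 and 276 CPM for shControl, a log2 fold change of 0.07 (SE 0.09, edgeR adjusted p = 0.765). In shNup153-2 neurons Ntrk2 was lower in silenced than in basal libraries by 1.41 on the log2 scale (SE 0.34, edgeR adjusted p = 0.0153). Without basal shNup153-2 replicate 1 or 2 or silenced shNup153-2 replicate 3 the edgeR adjusted p was 0.0873, 0.0831 and 0.0503. In shControl neurons the difference was -0.85 (SE 0.29, edgeR adjusted p = 0.0764), and it passed without basal shControl replicate 2, at -1.05 with an edgeR adjusted p of 0.0115.

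Astrocytes are known to express truncated TrkB, and astrocyte markers varied beside Ntrk2 among basal libraries. The 10 markers summed to 256 to 1390 CPM in silenced shNup153-2, 242 to 1220 CPM in silenced shControl, 2350 to 2720 CPM in basal shNup153-2, 1190 to 3050 CPM in basal shNup153-1 and 468 to 2610 CPM in basal shControl libraries, and none was at 0 in any library. The 5 libraries with 518 to 828 CPM of Ntrk2 had marker sums of 1760 to 3050 CPM, above those of all other libraries. Among the silenced libraries Ntrk2 did not follow the markers: the sums were 488, 1390 and 256 CPM with shNup153-2 and 494, 1220 and 242 CPM with shControl, where Ntrk2 had 280, 301 and 273 CPM and 282, 270 and 276 CPM. At like sums, the silenced libraries with 1390 and 1220 CPM had less Ntrk2 than basal ones. These were the basal shNup153-1 library with 1190 CPM (384 CPM of Ntrk2) and the basal shControl library with 1220 CPM (368 CPM). At lower sums the order turned: the basal shControl library with 468 CPM had 256 CPM of Ntrk2. The silenced libraries with 488 CPM (shNup153-2) and 494 CPM (shControl) had 280 and 282 CPM. Of the 10 markers, 2 were lower in silenced than in basal shNup153-2 neurons and 1, Gfap, in silenced than in basal shControl neurons. Between knockdown and control, 1 of 10 (S100b, with shNup153-1) was called. Their part in the differences of Ntrk2 was not tested.

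**Figure D2:**
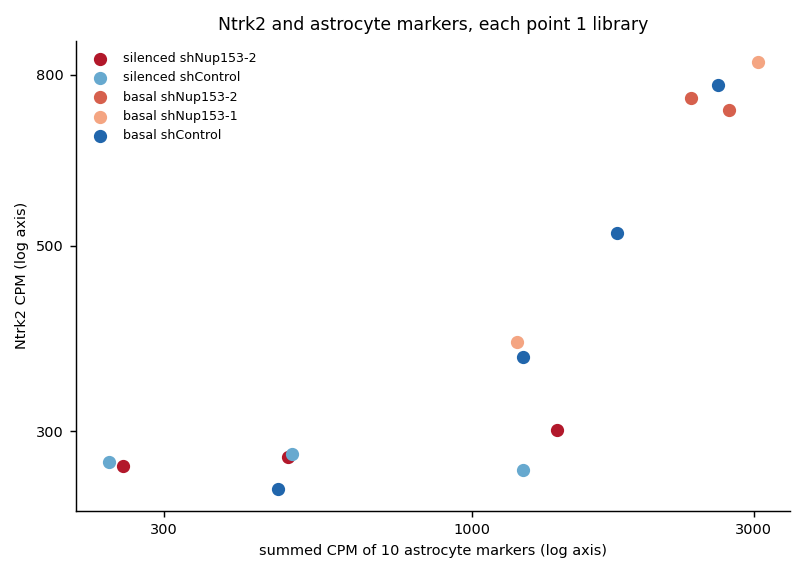
Ntrk2 level against the summed level of 10 astrocyte markers, both in CPM on log axes, with 1 point per library and colours for groups. Libraries with a marker sum of 1760 CPM or more lie at 518 CPM of Ntrk2 or above, and all silenced libraries lie between 270 and 301 CPM of Ntrk2 over marker sums of 242 to 1390 CPM.

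Ntrk3, which encodes TrkC, had 203 and 181 CPM in basal shNup153-2 libraries and 60.9 and 109 CPM in basal shNup153-1 libraries, against 229, 111, 153 and 121 CPM in basal shControl libraries. The shNup153-1 libraries lay below all others of the basal state, yet the log2 fold change of -0.87 (SE 0.35) was not called (edgeR adjusted p = 0.134). For shNup153-2 a log2 fold change of 0.29 was found (SE 0.29, edgeR adjusted p = 0.526). Silenced libraries had 163, 165 and 113 CPM with shNup153-2 and 200, 159 and 157 CPM with shControl, overlapping groups with a log2 fold change of -0.20 (SE 0.18, edgeR adjusted p = 0.605). The states differed by -0.42 (SE 0.29, edgeR adjusted p = 0.289) in shNup153-2 neurons and by 0.11 (SE 0.24, edgeR adjusted p = 0.818) in shControl neurons, the second being -0.01 without basal shControl replicate 2 and 0.00 without silenced shControl replicate 1. Ntrk3 thus passed the test in none of these comparisons. Between the hairpins it was higher with shNup153-2 by 1.16 on the log2 scale (SE 0.39), with an adjusted p of 0.12 in edgeR and of 0.0421 in DESeq2.

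Except in basal shNup153-2 neurons, where the mean of Ntf3 was lower, Ngfr, which encodes p75NTR, was the rarest of the transcripts. It had 3.50 and 3.73 CPM in basal shNup153-2 libraries and 1.58 and 1.5 CPM in basal shNup153-1 libraries, against 0.911, 1.36, 0.689 and 0.932 CPM in basal shControl libraries. Both hairpins lay above all shControl libraries. With shNup153-2 Ngfr rose 3.63-fold, a log2 fold change of 1.86 (SE 0.33, edgeR adjusted p = 0.0164). The call was lost without shControl replicate 4 (edgeR adjusted p = 0.0562) and without shNup153-2 replicate 1 (0.147) or 2 (0.16), while the log2 fold change stayed between 1.73 and 2.06. With shNup153-1 the log2 fold change of 0.64 (SE 0.33) was not called (edgeR adjusted p = 0.234). Between the hairpins the log2 difference was 1.22 (SE 0.38), with an adjusted p of 0.10 in edgeR and of 0.03 in DESeq2.

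In silenced neurons Ngfr was near the limit of detection, with 24, 21 and 5 counts in the shNup153-2 libraries and 4, 9 and 16 counts in the shControl libraries. These were 0.555, 0.744 and 0.125 CPM for shNup153-2 and 0.118, 0.274 and 0.436 CPM for shControl. The groups overlapped, with a log2 fold change of 0.76 (SE 0.71, edgeR adjusted p = 0.618). In shNup153-2 neurons Ngfr fell 7.86-fold in silenced relative to basal libraries, a log2 fold change of -2.97 (SE 0.57, edgeR adjusted p = 0.00629), and kept its call without any 1 library. In shControl neurons it fell by 1.84 on the log2 scale (SE 0.54, edgeR adjusted p = 0.0454), and that call was lost in 10 of 12 fits with 1 library left out. Leaving out any shControl library of either state was among these, with edgeR adjusted p between 0.0591 (basal replicate 3) and 0.166 (silenced replicate 1). So were basal shNup153-2 replicates 1 (0.0692) and 2 (0.0719) and silenced shNup153-2 replicate 1 (0.0654).

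Sort1, which encodes sortilin, had 441 and 424 CPM in basal shNup153-2 libraries and 181 and 276 CPM in basal shNup153-1 libraries, against 213, 174, 184 and 164 CPM in basal shControl libraries. Both shNup153-2 libraries lay above every other library, and the shNup153-1 libraries overlapped the controls. Sort1 rose 2.3-fold with shNup153-2, a log2 fold change of 1.20 (SE 0.18, edgeR adjusted p = 0.00908). Without shNup153-2 replicate 1 or 2 the log2 fold change was 1.17 and 1.24 and the edgeR adjusted p 0.129 and 0.117. For shNup153-1 it was 0.29 (SE 0.21, edgeR adjusted p = 0.408), and -0.05 without shNup153-1 replicate 2. The hairpins differed by 0.91 on the log2 scale (SE 0.25), with an adjusted p of 0.0736 in edgeR and of 0.00974 in DESeq2.

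Silenced libraries had 246, 223 and 194 CPM of Sort1 with shNup153-2, against 148, 135 and 151 CPM with shControl. The groups did not overlap. Sort1 rose 1.55-fold, a log2 fold change of 0.63 (SE 0.12, edgeR adjusted p = 0.0438). That call was lost without any 1 of the 6 libraries, with edgeR adjusted p of 0.0739 (without shControl replicate 2) to 0.19 (without shNup153-2 replicate 1) and log2 fold changes of 0.53 to 0.72. It was kept with the replicate block (edgeR adjusted p = 0.00486). Between states Sort1 was 2-fold lower in silenced shNup153-2 neurons, a log2 fold change of -1 (SE 0.16, edgeR adjusted p = 0.00302) that held without any 1 library. In shControl neurons it was -0.40 (SE 0.14, edgeR adjusted p = 0.0828).

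Furin, the convertase, had 88.7 and 89.2 CPM in basal shNup153-2 libraries and 36.1 and 49.6 CPM in basal shNup153-1 libraries, against 18.1, 15.8, 18.7 and 19.8 CPM in basal shControl libraries. All 3 groups were separate. Furin rose 4.81-fold with shNup153-2, a log2 fold change of 2.27 (SE 0.16, edgeR adjusted p = 0.00168), and 2.33-fold with shNup153-1, a log2 fold change of 1.22 (SE 0.18, edgeR adjusted p = 0.00519). With 1 library left out, the log2 fold change stayed between 2.21 and 2.31 with shNup153-2 and between 0.96 and 1.43 with shNup153-1. With the replicate number as a block the Furin call was kept with shNup153-2 and lost with shNup153-1. That blocked fit called 0 genes in all with shNup153-1.

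Between the hairpins Furin was higher with shNup153-2 by 1.05 on the log2 scale (SE 0.21, edgeR adjusted p = 0.0351). It was the 1 gene of the 7 called in that comparison, where 2.81% of 14529 genes were higher and 1.67% lower, 4.48% in all. The median log2 difference was 1.05 over the 7 genes and 0.01 over all genes. The Furin call was lost without shControl replicate 3 (edgeR adjusted p = 0.0566) or 4 (0.0637), shNup153-1 replicate 1 (0.236) and shNup153-2 replicate 1 (0.233) or 2 (0.19). For the remaining Nup153 RNA the log2 difference between the hairpins was -0.85 (SE 0.34, edgeR adjusted p = 0.164) and did not pass the threshold, and its part in the difference of Furin was not tested.

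In silenced neurons Furin had 83.9, 58.1 and 69.3 CPM with shNup153-2, against 28.2, 24.4 and 35.1 CPM with shControl, and the groups did not overlap. It rose 2.44-fold, a log2 fold change of 1.29 (SE 0.19, edgeR adjusted p = 0.0229). The call was lost without shControl replicate 1 (edgeR adjusted p = 0.129) and without shNup153-2 replicate 1 (0.115) or 3 (0.0756), and kept with the replicate block (edgeR adjusted p = 0.000973). Furin was also higher in silenced than in basal shControl neurons, by 0.64 on the log2 scale (SE 0.16, edgeR adjusted p = 0.0245). That call was lost without silenced shControl replicate 1 (edgeR adjusted p = 0.0632) or 3 (0.102). In shNup153-2 neurons the states differed by -0.37 (SE 0.19, edgeR adjusted p = 0.167), and the interaction was -1.01 (SE 0.25), with an unadjusted p of 0.00161 and an adjusted p of 0.195 in edgeR and an adjusted p of 0.0384 in DESeq2.

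**Figure D3:**
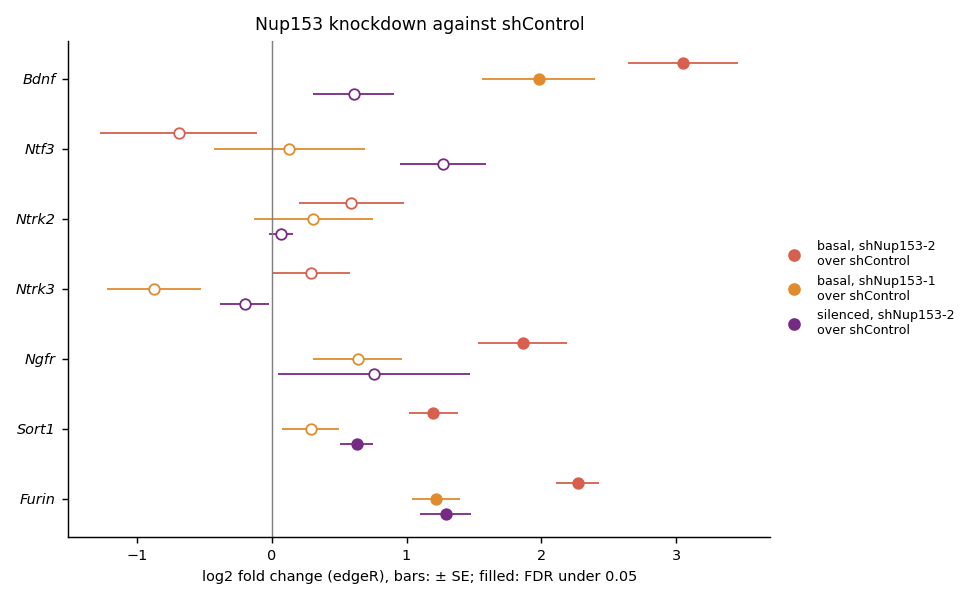
Log2 fold change of knockdown over shControl for each gene, with bars of 1 SE; filled points passed an FDR of 0.05 in edgeR. Furin is filled in all comparisons shown, Bdnf at basal state with both hairpins (3.05 and 1.98), Sort1 with shNup153-2 in both states and Ngfr with shNup153-2 at basal state.

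Over the 7 genes, silenced against basal neurons gave 1 higher (Ntf3) and 4 lower genes (Bdnf, Ntrk2, Ngfr and Sort1) with shNup153-2, where 9.39% of 20926 genes were higher and 12.3% lower. With shControl it gave 1 higher (Furin) and 1 lower gene (Ngfr), where 6.09% were higher and 6.27% lower. The median log2 fold change of the 7 genes was -1 with shNup153-2 and -0.40 with shControl, beside 0.01 and -0.03 over all genes in the same comparisons. The states were deposited as separate tables, so state and table cannot be told apart. GABAergic interneuron markers also differed by state: 4 of 10 were lower with shNup153-2 and 6 of 10 with shControl. Their sums were 519 to 601 CPM in silenced shNup153-2, 472 to 531 CPM in silenced shControl, 1330 to 1390 CPM in basal shNup153-2 and 788 to 1420 CPM in basal shControl libraries, with none at 0. Oligodendrocyte-lineage markers moved as well: 6 of 12 were higher and 1 lower with shNup153-2, and 4 of 12 higher with shControl. The sums of 11 of them were 152 to 601 CPM in silenced shNup153-2, 255 to 450 CPM in silenced shControl, 254 to 382 CPM in basal shNup153-2 and 114 to 285 CPM in basal shControl libraries. Endothelial and mural markers summed to 3.21 to 4.67 CPM in silenced shNup153-2 and 3.87 to 5.60 CPM in silenced shControl libraries, against 9.60 to 11.4 and 12.1 to 23.1 CPM in the basal libraries of the same hairpins. Of 5 tested, 1 was higher and 2 lower with shNup153-2, and 1 higher and 3 lower with shControl. Fibroblast and meningeal markers summed to 24.6 to 91.6 and 19.3 to 80.6 CPM in silenced libraries. In basal ones the sums were 9.18 to 16.7 and 3.30 to 16.2 CPM. Of 6 markers 1, Pdgfra, was higher with either hairpin. The median log2 fold change of the 6 was 0.03 with shNup153-2 and 1.04 with shControl. Neural progenitor markers summed to 125 to 381 CPM in silenced and 469 to 778 CPM in basal shNup153-2 libraries (3 of 8 higher and 1 lower), and overlapped between states with shControl. The part of these marker lists in the differences between states was not tested.

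The interaction of shNup153-2 with state was not called for any of the 7 genes, nor for any of 20926 genes (0%), by edgeR's quasi-likelihood test. At an unadjusted p under 0.05 it held 2393 genes, among them 4 of the 7 (Bdnf, Furin, Sort1 and Ntf3). DESeq2 called 251 genes, 2 of them members (Bdnf and Furin). For Sort1 the interaction was -0.60 (SE 0.21, edgeR adjusted p = 0.357), and for Ngfr, Ntrk2 and Ntrk3 it was -1.13 (SE 0.79), -0.55 (SE 0.44) and -0.52 (SE 0.37).

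**Figure D4:**
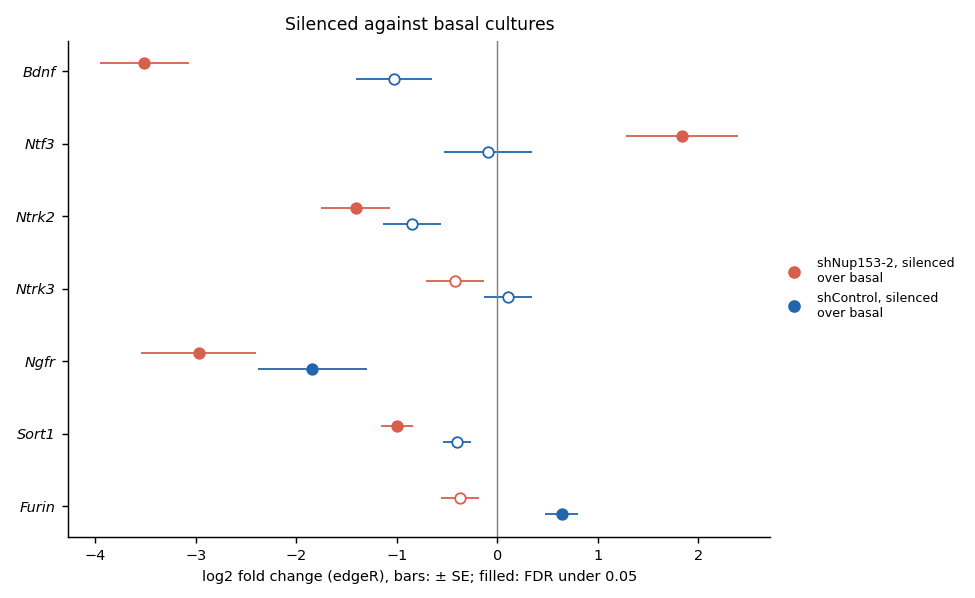
Log2 fold change of silenced over basal neurons for each gene, by hairpin, with bars of 1 SE; filled points passed an FDR of 0.05 in edgeR. With shNup153-2 Bdnf lies at -3.51 and Ngfr at -2.97, while Ntf3 lies on the other side of 0 at 1.84.

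Other genes of the pathway were counted from lists of related roles. Their counts stand beside the shares over all genes: 5.91% rose and 3.64% fell with shNup153-2 at basal state, 6.52% rose and 7.05% fell with shNup153-1, and 1.61% rose and 1.83% fell in silenced neurons, or 11.7% and 10.3% with the replicate block. Between states the shares are the 9.39% higher and 12.3% lower with shNup153-2 and the 6.09% and 6.27% with shControl given above. Among 17 tested convertases, proteases, protease inhibitors and sorting factors of the neurotrophin precursors, 1 rose and 1 fell with either hairpin at basal state (median log2 fold change 0.02 with shNup153-2 and 0.18 with shNup153-1). Pcsk1, the convertase of dense-core granules, rose with both. It averaged 47.1 ± 10.2 CPM with shNup153-2 (SD, n = 2) and 33.3 ± 3.71 CPM with shNup153-1 (n = 2), against 7.98 ± 2.44 CPM with shControl (n = 4). Its log2 fold changes were 2.53 (SE 0.30, edgeR adjusted p = 0.00506) with shNup153-2 and 2.04 (SE 0.27, edgeR adjusted p = 0.0038) with shNup153-1. Cadps2, a factor of dense-core vesicle release, fell with shNup153-2 by 1.89 (SE 0.34, edgeR adjusted p = 0.017) on the log2 scale, and Pcsk6, another convertase, fell with shNup153-1 by 1.70 (SE 0.30, edgeR adjusted p = 0.00953).

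In silenced neurons Cadps2 was the 1 of 15 genes of the same list called with shNup153-2, with 11.5 ± 1.36 CPM, against 50.2 ± 16.8 CPM with shControl (SD, n = 3 each), a log2 fold change of -2.11 (SE 0.26, edgeR adjusted p = 0.0153). With the replicate block 3 rose and 4 fell. Cadps2 was thus lower in both states. For the interaction of shNup153-2 with state edgeR called none of 17, as it called none of all 20926 genes (0%). Between states 4 of 17 were lower and none higher with either hairpin (median -0.78 with shNup153-2 and -0.29 with shControl). Pcsk1 was lower by 3.36 with shNup153-2 (SE 0.34, edgeR adjusted p = 0.000314) and by 1.31 with shControl (SE 0.30, edgeR adjusted p = 0.0155) on the log2 scale. The others were Timp1, Plau and Mmp2 with shNup153-2 and Serpini1, Timp1 and Plau with shControl. Timp1, Plau and Mmp2 are low throughout, at group means of at most 2.63 CPM.

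Of 11 other neurotrophin genes, receptors and partners, 2 rose and none fell with shNup153-2 at basal state (median 0.43). They were Sorcs2, a Vps10 receptor related to sortilin (log2 fold change 1.01, SE 0.18, edgeR adjusted p = 0.0148), and Rtn4r, the Nogo receptor, a partner of p75NTR (0.98, SE 0.24, edgeR adjusted p = 0.043). In silenced neurons Rtn4r was the 1 of 9 called, with a log2 fold change of 1.01 (SE 0.20, edgeR adjusted p = 0.0448), and with the replicate block 1 rose and 2 fell. With shNup153-1 none rose and 3 fell (median -0.26), among them Ntf5 and Slitrk3. Ntf5, which encodes neurotrophin-4, was at most 0.804 CPM in all groups. Between states 4 fell with shNup153-2, among them Sorl1, Sorcs3 and Sorcs1, and 3 with shControl, among them Ntf5 and Sorcs3, with medians of -0.59 and -0.38.

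Of 46 adaptors and kinases downstream of Trk receptors, 6 rose and 2 fell with shNup153-2 at basal state, and 3 rose and 4 fell with shNup153-1 (medians 0.09 and -0.09). With shNup153-1 these counts are near the shares over all genes in both directions. Nras, a Ras GTPase, had 36.1 ± 5.42 CPM with shNup153-2 (SD, n = 2), against 189 ± 38.5 CPM with shControl (n = 4), a log2 fold change of -2.42 (SE 0.26, edgeR adjusted p = 0.00475). Rps6ka2, a kinase of the RSK family, had 97 CPM in both shNup153-2 libraries, against 23.7 ± 5.9 CPM with shControl, a log2 fold change of 2.00 (SE 0.23, edgeR adjusted p = 0.005). Pik3r2, a regulatory subunit of phosphoinositide 3-kinase, and the kinase gene Akt2 rose with both hairpins. Their log2 fold changes were 1.31 and 0.86 with shNup153-2 and 1.19 and 1.38 with shNup153-1. In silenced neurons 2 of 46 rose and 3 fell (median 0.00), led by Rps6ka2 at 1.44 (SE 0.10, edgeR adjusted p = 0.00529), Nras at -1.67 (SE 0.17, edgeR adjusted p = 0.00915), Rap1b at -0.80 and Pik3r1 at -0.92. With the replicate block 9 rose and 9 fell. Between states 4 rose and 10 fell with shNup153-2, led by falls of Rps6ka3 and the adaptor gene Shc3, and 4 rose and 1 fell with shControl, led by a rise of Pik3r2 (1.10, SE 0.13, edgeR adjusted p = 0.000756), with medians of -0.03 and -0.10.

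With shNup153-2 at basal state, feedback inhibitors of receptor tyrosine kinase signalling were called in 1 direction only, as were the other neurotrophin genes and receptors. Of 14 feedback inhibitors tested, 5 rose and none fell with shNup153-2 (median 0.99), and none was called with shNup153-1 (median 0.56). The first 4 were Dusp5, Dusp4 and Dusp6, phosphatases of ERK kinases, with log2 fold changes of 1.87, 1.33 and 1.77, and Nedd4l, a ubiquitin ligase, with 0.93. In silenced neurons 1 of 15 was called, a fall of Cbl (-1.11, SE 0.20, edgeR adjusted p = 0.0363), with a median of 0.00, and with the replicate block 1 rose and 4 fell. Between states 7 fell and none rose with shNup153-2 (median -1.49), led by Dusp4 (-3.27, SE 0.35, edgeR adjusted p = 0.000369), Dusp5 (-2.50, SE 0.33, edgeR adjusted p = 0.000955), Spred3 (-2.59) and Spred2 (-2.01). With shControl Nedd4l rose and Dusp4 and Dusp5 fell (median -0.46).

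Of 18 signalling partners of p75NTR, 1 rose and 1 fell with shNup153-2 at basal state, and 2 rose and 2 fell with shNup153-1. With shNup153-1 the risers included Arhgdia (1.08), and Adam10 (-1.62) and Prdm4 (-0.95) fell. Adam10, a membrane protease, differed between the hairpins by 2.09 (SE 0.25, edgeR adjusted p = 0.00815) on the log2 scale. In silenced neurons 1 rose and none fell, and with the replicate block 4 rose and 3 fell. The medians of this list were -0.22 with shNup153-2, 0.15 with shNup153-1 and -0.21 between the hairpins at basal state, and -0.04 in silenced neurons.

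Of 26 factors reported at Bdnf promoters, 3 rose and 1 fell with shNup153-2 at basal state (median 0.13), and 3 rose and 4 fell with shNup153-1 (median 0.01). Npas4, a transcription factor induced by neuronal activity, averaged 19.9 ± 2.47 CPM with shNup153-2 (SD, n = 2) and 35.3 ± 26 CPM with shNup153-1 (n = 2), against 2.65 ± 0.552 CPM with shControl (n = 4). Its log2 fold changes were 2.87 (SE 0.24, edgeR adjusted p = 0.00256) with shNup153-2 and 3.70 (SE 0.40, edgeR adjusted p = 0.00201) with shNup153-1. The transcription factor gene Usf2 rose with both hairpins (1.03 with shNup153-2 and 1.25 with shNup153-1), and Hdac2, a histone deacetylase, fell with both (-1 with shNup153-2 and -1.51 with shNup153-1). Mef2d rose with shNup153-2 (1.36) and Mef2a fell with shNup153-1 (-1.44), both being transcription factors of the MEF2 family. In silenced neurons none rose and 1 fell (median -0.06), and with the replicate block 2 rose and 6 fell. Between states 5 rose and 4 fell with shNup153-2, led by a fall of Npas4 (-2.97, SE 0.47, edgeR adjusted p = 0.00277), and 4 rose and 2 fell with shControl, led by a rise of Crtc1, a coactivator of CREB (1.22, SE 0.15, edgeR adjusted p = 0.000861).

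Like the calls over all genes, these pathway calls rested on few libraries. Over the comparisons above there were 124 such calls, of which 23 held in every fit with 1 library left out. With shNup153-2 at basal state all 23 were lost without shNup153-2 replicate 2 (edgeR adjusted p of 0.0555 for Npas4 to 0.339 for Akt2), 22 without replicate 1 (up to 0.344) and 14 without shControl replicate 4 (up to 0.139). With shNup153-1, 8 of 23 held in all of them, namely Adam10, Akt2, Crtc1, Hdac2, Mef2a, Npas4, Pcsk1 and Usf2, and 15 were lost without shNup153-1 replicate 1 (edgeR adjusted p up to 0.259, for Mef2c). In silenced neurons all 10 were lost without shNup153-2 replicate 1 (edgeR adjusted p of 0.0656 or more, the lowest for Rps6ka2). Without shControl replicate 1, 9 were lost (0.0677 or more, the lowest for Nras). Over all genes, these 2 fits called 4 and 12 genes in place of 654. With shNup153-2 at basal state, 650 genes in place of 1880 were called without shControl replicate 4. Leaving out 1 basal library of either Nup153 hairpin leaves 1 in its group, and calls over all genes fell there too. Between states, 8 of 40 held in all of them with shNup153-2 (Dusp4, Dusp5, Npas4, Pcsk1, Rps6ka3, Shc3, Spred2 and Spred3) and 7 of 23 with shControl, among them Crtc1, Mef2d, Nedd4l, Neurod2, Pcsk1 and Pik3r2. The 5 calls between the hairpins were all lost without shNup153-2 replicate 1 or 2 or shNup153-1 replicate 1, Adam10 with edgeR adjusted p of 0.109, 0.0722 and 0.0736.

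For each of the 7 genes, the transcripts with the most similar profile over the 12 silenced and basal shNup153-2 and shControl libraries were ranked by the correlation of log2 CPM among 13023 genes. These values describe libraries that share groups and carry no test. Nearest to Bdnf were Sowahb (r = 0.975), Dusp5 (r = 0.969) and Nr4a1 (r = 0.964). Nr4a1, an orphan nuclear receptor of the rapid activity response, had 3.24 to 4.78 CPM in silenced shNup153-2, 2.13 to 3.45 CPM in silenced shControl, 42.7 to 67.5 CPM in basal shNup153-2 and 3.23 to 9.56 CPM in basal shControl libraries. Nearest to Ntf3 were Rasl10a (r = 0.919), Exoc7 (r = 0.913) and Ccdc13 (r = 0.908). Rasl10a, a small GTPase, had 18.3 to 43.7 CPM in silenced shNup153-2, 6.40 to 19.7 CPM in silenced shControl, 2.58 to 4.20 CPM in basal shNup153-2 and 3.45 to 9.91 CPM in basal shControl libraries.

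Among the receptors, Ntrk2 was nearest to Mindy2 (r = 0.987), Gprin3 (r = 0.983) and Trpm2 (r = 0.976). Ntrk3 was nearest to Asb7 (r = 0.955), Ppp1r9a (r = 0.953) and Prickle2 (r = 0.952). Ngfr was nearest to Syt2 (r = 0.95), Pdzd2 (r = 0.945) and Zmat4 (r = 0.944). For the sorting and cleavage genes, Sort1 was nearest to Pigz (r = 0.98), Hivep1 (r = 0.976) and Kcna4 (r = 0.975), and Furin to Ptpn11 (r = 0.993), Cd276 (r = 0.989) and Traf3 (r = 0.984). Ptpn11, a phosphatase that acts downstream of Trk receptors, had 175 to 189 CPM in silenced shNup153-2, 134 to 150 CPM in silenced shControl, 195 to 196 CPM in basal shNup153-2 and 121 to 130 CPM in basal shControl libraries. Its order of groups was that of Furin, over a narrower range.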

How the data were processed

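Per the labels, poly(A) RNA with a RIN above 8 was made into strand-specific libraries and sequenced as paired reads of 100 bases. Per the submitters' processing notes, reads were counted with featureCounts 2.0.1 on mm10 after FastQC. The deposited values are whole-number counts per gene with no normalization by the authors. Which aligner, annotation and strand setting served was not given in the sources used here. Groups follow the sample titles, although the description field of knockdown samples speaks of shControl virus. In the basal table, a name occurs on 2 columns, which no label ties to a sample, and both were left out. The shNup153-1 columns are displaced against the gene symbols below line 16419, so lines up to 16399 were used for that hairpin, with totals from all lines.

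Genes were kept by filterByExpr (minimum count 10), scaled by TMM and tested with edgeR 4.0.16 (R 4.3.3) by the quasi-likelihood F test with Benjamini-Hochberg adjustment over all genes tested and an FDR of 0.05. SE is the log2 fold change divided by the root of F. CPM were scaled by TMM across all 14 libraries. Basal shNup153-2 and shControl were fitted over all lines, the 3 basal groups together for comparisons with shNup153-1, the silenced groups alone, and both states of shNup153-2 and shControl jointly. The fits were tested on simulated counts. Alternatives were DESeq2 1.42.0, RLE factors, no filter, other sets of groups, the replicate number as a block, and each library left out. Where that leaves 1 library in a group, it is assumed to vary like the others. Residuals of same-numbered silenced libraries correlated at 0.29, 0.57 and 0.62, and those of differently numbered ones at -0.59 to 0.06. Differently numbered basal shNup153-1 and shControl libraries reached 0.65. Whether the numbers pair libraries was not tested, and the labels do not say that same-numbered libraries share a litter.

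The 7 genes and all lists were chosen with earlier results of these data known. The text names the 7 genes, up to 4 called genes per list with the smallest p in each comparison, a few of them again in comparisons where they were also called, and the 3 genes most like each of the 7 over 12 libraries, with a pseudocount of 0.5 CPM, a mean of at least 1 CPM and Pearson's r. Some genes of these lists are not reported here by name.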

Additional observations from a re-analysis of the deposited data

How the results depend on the processing

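Direction and call of the 7 genes held under RLE factors in every comparison. Among the 7, the count called with shNup153-1 at basal state was 2, and 0 with the replicate block. Between the hairpins it was 1, 4 by DESeq2, 0 with only the 2 groups compared and 0 with the replicate block. In silenced neurons it was 2, 3 by DESeq2, 3 without a filter and 3 with the block. Between states with shControl it was 2, 5 by DESeq2, 1 without a filter, 0 with only the 2 groups compared and 1 with the block. For the interaction it was 0, and 2 by DESeq2. With 1 library left out, the counts were 1 to 2 with shNup153-1, 1 to 4 with shNup153-2 and 0 to 1 between the hairpins at basal state, 0 to 1 in silenced neurons, 0 to 2 and 3 to 5 between states with shControl and shNup153-2, and 0 to 0 for the interaction. The cause was not tested.

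Directions that turned were all of values not called. With shNup153-1 and 1 library left out, the log2 fold change of Ntf3 ranged from -0.35 (without shNup153-1 replicate 1) to 0.59 and was -0.10 without shControl replicate 3, that of Ntrk2 ranged from -0.36 (without shNup153-1 replicate 2) to 0.77 and that of Sort1 from -0.05 (without the same library) to 0.57. Between the hairpins Ntrk2 ranged from -0.18 (without shNup153-1 replicate 1) to 0.94. Between states with shControl, Ntf3 was 0.37 with the block and ranged from -0.39 to 0.36 (without basal replicate 4), being 0.14 without silenced replicate 1, and Ntrk3 ranged from -0.01 (without basal replicate 2) to 0.38, being 0.00 without silenced replicate 1.

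Over all genes, DESeq2 called 3146 in place of 1971 with shNup153-1, 3624 in place of 1880 with shNup153-2, 2102 in place of 651 between the hairpins, 1791 in place of 654 in silenced neurons and 251 in place of 0 for the interaction, where the unfiltered fit called 3 and the block 2. Between states DESeq2 called 3690 genes in place of 2586 with shControl and 5974 in place of 4545 with shNup153-2. With only the 2 groups compared, 1203 genes were called with shNup153-1, 1255 in place of 2586 between states with shControl and 7714 in place of 4545 with shNup153-2. With 1 library left out, the counts were 356 to 2050 with shNup153-1, 15 to 2211 with shNup153-2, 0 to 998 between the hairpins and 4 to 659 in silenced neurons, 1069 to 3426 and 841 to 6120 between states with shControl and shNup153-2, and 0 to 12 for the interaction.

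The replicate block called 4161 genes in silenced neurons, and of the 7 genes it changed only the call of Ntf3 there. In neither state were the numbers shown to pair the libraries. At basal state residual correlations of same-numbered libraries were 0.24 and 0.05 with shNup153-2 and -0.58 and -0.65 with shNup153-1. There the block gave 0 calls over all genes with shNup153-1 and 0 between the hairpins. The small groups and, for Ngfr in silenced neurons, as few as 4 counts limit what could be detected.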
